A study of Mus musculus with 18 samples.

Results

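The genes described here are 10 surface proteins that are used to recognise mesenchymal stem cells (MSC) and other stromal cells of the mouse, Ly6a, Cd44, Thy1, Eng, Nt5e, Vcam1, Lepr, Pdgfra, Pdgfrb and Alcam. They were chosen by name, and the gene identifiers of the deposited count table were matched to these symbols, which found all 10 among 54347 genes. RNA-seq had been carried out on cultured MSC from the marrow of male C57BL/6J mice, in 6 groups of 3 libraries. In the first experiment MSC were left untreated (control), received CK666, which blocks actin branching by the Arp2/3 complex, or received CytoD (cytochalasin D), a toxin that binds filament ends and stops their growth. In the second experiment every group was transfected, with a control siRNA (siControl), with an siRNA against Arp4 (siArp4), or with the Arp4 siRNA followed by CK666 (siArp4+CK666). Arp4 is an actin-related protein of the nucleus and is encoded by Actl6a. All cells came from a single primary line made from several mice. The 3 libraries of a group were separate preparations and not different animals, so the p-values measure the spread between preparations. A library is a culture and not a sorted population, so fewer cells that carry a marker and less of its RNA per cell cannot be told apart.

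Stromal cells of the marrow have no single defining surface protein and are recognised by a combination of proteins with different tasks. Ly6a (Sca-1) and Thy1 (CD90) are small proteins held in the membrane by a lipid anchor, Cd44 binds the matrix polysaccharide hyaluronan, and Vcam1 and Alcam (CD166) are adhesion molecules of the immunoglobulin superfamily. Pdgfra and Pdgfrb are receptor tyrosine kinases for platelet-derived growth factors, Lepr is the leptin receptor, Eng (endoglin, CD105) is a co-receptor for ligands of the TGF-beta family, and Nt5e (CD73) is an ectonucleotidase that makes adenosine outside the cell. In mouse marrow Lepr, Vcam1 and the PDGF receptors are typical of perivascular stroma.

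Total estimated counts ran from 18075610 to 24733212 per library, and replicates of a group always differed by more than sampling noise (chi-square per degree of freedom at least 6.47). The siControl libraries differed most from one another, by 110 to 392 per degree of freedom, and CK666 replicate 1 differed from the other CK666 libraries by 62.2 and 99.6. Where leaving out 1 library changed the call of a member or moved a called change by over 1.5 times, the value without it is given beside the result. The targeted gene Actl6a had 720.1, 1127 and 841 normalized counts in siControl libraries. It had 48.8, 57.2 and 19.0 in siArp4 libraries and 9.52, 22.9 and 17.9 where CK666 was added, so the knockdown labels held in all 9 libraries. Normalized counts are counts divided by a size factor of the library, and are given on the scale of their own experiment. The stromal identity of the cultures was read from marker lists, as levels summed over a list, in normalized CPM (counts relative to library depth) per kilobase of exon. A list of 10 fibroblast and stromal genes such as Col1a1 and Fn1 summed to between 2601 and 5526, with Lum at 0 in every library, against 4.51 to 12.5 for 17 blood cell and macrophage genes and 0.0839 to 0.761 for 10 endothelial genes. A list of 8 osteoblast genes, which also holds Col1a1, summed to between 2749 and 7856. In each group 5 to 7 of the blood cell genes and 1 to 2 of the endothelial genes reached 10 counts in a library. Among the former Lyz2 reached 179, Kit 162, Csf1r 144, Cd14 122 and Cd68 116 counts, while Ptprc, carried by white blood cells in general, had at most 1 and the T cell gene Cd3e had 0. Among the latter Vwf reached 251 and was called higher on CK666 (log2 fold change 1.99, SE 0.52, adjusted p = 6.43e-04 by the test described below), while Pecam1 had at most 9 and Cdh5 had 0.

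The markers fell into an abundant and a near-silent set (plot of levels per length). On the scale of normalized CPM per kilobase of exon, control MSC held 65.8 ± 2.23 (SD, n = 3) of Pdgfrb, 19.8 of Cd44, 17.5 of Ly6a, 12.0 of Pdgfra and 6.18 of Vcam1. Each of these levels lay outside the range of its neighbour in the order, although the gap between Cd44, with a lowest library of 19.6, and Ly6a, with a highest library of 19.2, was small. Eng reached only 0.437 and Alcam 0.109 in control MSC, Lepr 0.0469 and Nt5e 0.00534, and Thy1 had no count. Among 12820 genes that averaged at least 10 counts in control cells, Pdgfrb lay at percentile 94.7 and Vcam1 at 52.0. Thy1 and Nt5e, which are commonly asked of MSC, were thus absent or close to it in these cultures. The order of the 5 abundant markers already differed between the control groups of the experiments. In siControl cells Ly6a at 41.5 ± 11.3 (SD, n = 3) and Pdgfrb at 40.2 ± 9.20 lay within each other's spread, and Cd44 at 5.89 was the lowest of the 5, below Vcam1 at 14.3 and Pdgfra at 13.3. Cd44 stayed the lowest in siArp4 cells at 3.86 and in siArp4+CK666 cells at 1.85. Ly6a was the most abundant member in siArp4 cells at 112, above Pdgfrb at 46.2, and stood at 6.47 in siArp4+CK666 cells, below Pdgfra at 13.2 and Vcam1 at 7.96.

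**Figure D1:**
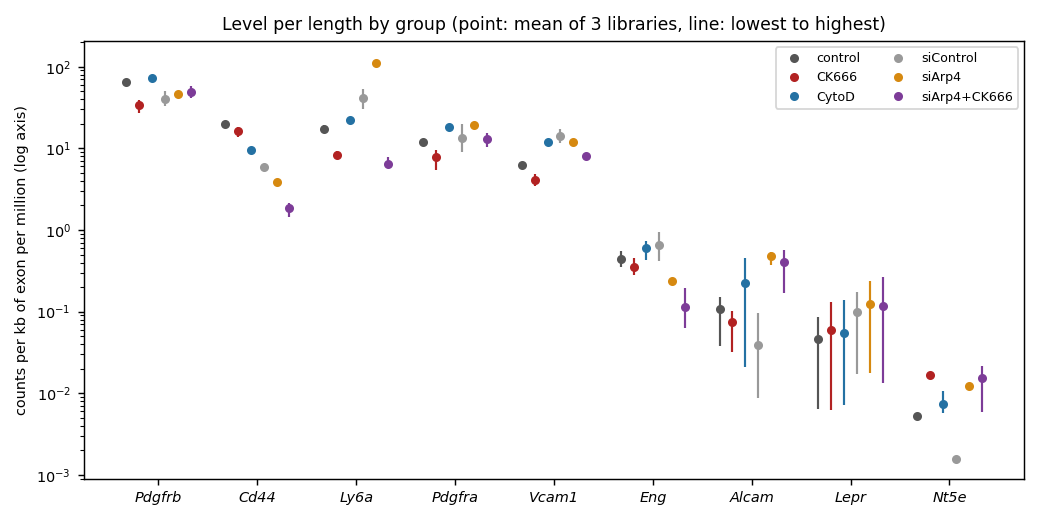
Levels of 9 markers by group, in normalized CPM per kilobase of exon on a log axis (points: means of 3 libraries; lines: lowest to highest library, left out where a library was at 0). Pdgfrb, Cd44, Ly6a, Pdgfra and Vcam1 lie between 1.85 and 112 in every group, and the other 4 lie below 1; Thy1, with no count in any library, is not drawn.

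Ly6a, on chromosome 15 (GRCm38, chr15:74994877-74998031, minus strand), had the largest ratio of highest to lowest library among the 5 abundant members. In the first experiment it had 488, 443 and 399 normalized counts in control, 237, 215 and 188 in CK666, and 553, 590.5 and 550.2 in CytoD libraries. All CK666 libraries lay below all control libraries and all CytoD libraries above them. Ly6a fell 2.08-fold on CK666 (log2 difference -1.06, SE 0.15, adjusted p = 8.15e-12 by the DESeq2 Wald test with Benjamini-Hochberg adjustment over all genes tested, as throughout). The call, an absolute log2 fold change over 1 with an adjusted p below 0.01, rested on the fold, since without control replicate 1 the change was -0.99 and without CK666 replicate 3 it was -0.97. The difference of 0.35 on CytoD did not pass the test (SE 0.14, adjusted p = 0.0357).

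The range of Ly6a was wider in the second experiment. It had 758, 1279 and 1009 normalized counts in siControl, 2842, 2865 and 2423 in siArp4 libraries and 142, 145 and 187 in siArp4+CK666 libraries, with no overlap between the groups. Ly6a rose 2.67-fold on Arp4 knockdown (log2 fold change 1.42, SE 0.23, adjusted p = 2.17e-08). With CK666 added to knockdown cells it was 17.2-fold lower than in knockdown alone (95% interval 12.4 to 23.9; log2 fold change -4.10, adjusted p = 4.29e-61) and 6.43-fold lower than in siControl (log2 fold change -2.69, adjusted p = 1.31e-26). Leaving out any 1 library kept the knockdown change between 1.24 and 1.61 and the change on CK666 in knockdown cells between -4.24 and -4.03. The CK666 response in knockdown cells differed from that in untransfected cells (log2 difference -3.05, SE 0.27, adjusted p = 5.65e-26), a test in which knockdown and transfection cannot be told apart, because siControl cells given CK666 were not analysed here.

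Ly6a belongs to a cluster of similar genes, and part of its transcript sequence also occurs in other genes. Of the 1259 distinct 31-base words in its annotated transcripts, 402 (31.9%) also occurred in transcripts of other genes, 276 of them in Ly6c1, so the split of counts between these genes is uncertain. Ly6c1, a related lipid-anchored protein, had 165, 153 and 171 normalized counts in control, 99.2, 65.2 and 93.0 in CK666, 436, 763 and 659 in siControl, 1229, 1311 and 1161 in siArp4 libraries and 187, 205 and 238 in siArp4+CK666 libraries. It fell on CK666 in knockdown cells (log2 fold change -2.55, SE 0.24, adjusted p = 9.39e-24), while its knockdown difference (SE 0.24, adjusted p = 1.83e-04) lay just under the fold limit. Of the 19 genes of the Ly6 family in the table, Ly6a included, 8 were tested for CK666 in knockdown cells, where 0 were called higher and 5 lower, beside 1.63% and 4.12% of all 14098 genes tested. The family's median was -2.89 and that over all genes 0.02. Of those called, Gml and Gml2 were low, with means of 21.1 and 14.3 normalized counts over the second experiment. Only 4 family genes reached 10 counts in a siArp4+CK666 library. Ly6e, a broadly expressed member, was also called lower (log2 fold change -1.28, SE 0.29, adjusted p = 1.67e-04). The abundant Lynx1 was not called (log2 fold change -0.14, SE 0.15, adjusted p = 0.660).

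**Figure D2:**
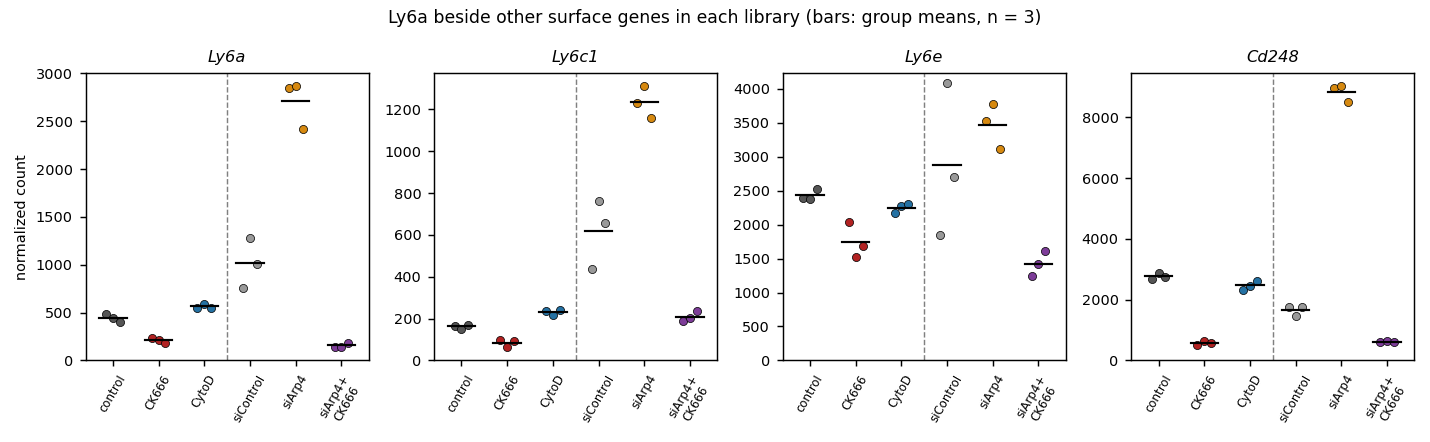
Normalized counts of Ly6a, its family members Ly6c1 and Ly6e, and the stromal glycoprotein gene Cd248 in each of 18 libraries (points; bars: group means, n = 3; dashed line: border between the experiments, which have separate scales). For Ly6a, Ly6c1 and Cd248 every siArp4 library lies above and every siArp4+CK666 library below the siControl libraries, while Ly6e overlaps between siControl and siArp4.

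Cd44, the hyaluronan receptor, was the abundant member that was lower in every treated or knockdown group than in its own control (chr2:102811141-102901665, minus strand). It had 2835, 2874 and 2792 normalized counts in control, 2003, 2623 and 2396 in CK666, and 1372, 1300.0 and 1423 in CytoD libraries. Both treated groups lay wholly below control. It fell 2.08-fold on CytoD (log2 fold change -1.05, SE 0.12, adjusted p = 5.59e-18), and leaving out any 1 library kept this between -1.09 and -1.02. The difference on CK666 was -0.28 (SE 0.12, adjusted p = 0.0447) and did not pass the test.

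In the second experiment Cd44 had 856, 809.8 and 772 normalized counts in siControl, 500.2, 518 and 553 in siArp4 libraries and 296, 196 and 272 in siArp4+CK666 libraries. The 3 groups did not overlap, and knockdown cells lay between the others. The knockdown difference of -0.63 (SE 0.19, adjusted p = 0.00371) passed the p threshold and not the fold limit. Leaving out each library in turn gave -0.68 to -0.60, with adjusted p from 4.85e-04 to 0.0494, so the pass could be lost. Cd44 fell 3.20-fold in siArp4+CK666 against siControl (log2 fold change -1.68, SE 0.19, adjusted p = 1.06e-16) and 2.06-fold against siArp4 (-1.04, SE 0.19, adjusted p = 2.25e-06). The last of these was -0.88 without siArp4+CK666 replicate 2 and was then not called.

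Vcam1, an adhesion molecule that binds integrins of blood cells, lay below control on CK666 and above it on CytoD (chr3:116109949-116129688, minus strand). Its normalized counts were 1222, 1146 and 1102 in control, 648, 779 and 914 in CK666, and 2296, 2148 and 2325 in CytoD libraries, and no 2 groups overlapped. The difference from control was -0.57 on CK666 (SE 0.14, adjusted p = 1.57e-04) and 0.96 on CytoD (SE 0.13, adjusted p = 9.11e-12), both past the p threshold and under the fold limit; without control replicate 1 the second was just over the limit and was called. Between the agents Vcam1 was 2.89-fold lower on CK666 (log2 difference -1.53, SE 0.13, adjusted p = 2.65e-28). It had 3195, 2032 and 2558 normalized counts in siControl, 2144, 2056 and 2195 in siArp4 libraries and 1534, 1360.2 and 1404 in siArp4+CK666 libraries. The siArp4 libraries lay within the siControl range (difference -0.28, SE 0.19, adjusted p = 0.262), and all siArp4+CK666 libraries lay below both groups. Against siControl the difference was -0.86 (SE 0.19, adjusted p = 5.96e-05), and it was -1.01, and called, without siControl replicate 2.

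Alcam, an adhesion molecule that binds CD6 on T cells, was near the floor of detection (chr16:52248996-52454074, minus strand). It had 14.3, 1.26 and 1.87 normalized counts in siControl, 53.1, 73.4 and 77.1 in siArp4 libraries and 68.7, 82.0 and 24.2 in siArp4+CK666 libraries. Each knockdown library lay above every siControl library. The rise was 11.2-fold in siArp4 (95% interval 4.09 to 30.7; adjusted p = 2.29e-05) and 9.64-fold in siArp4+CK666 (95% interval 3.51 to 26.4; adjusted p = 6.55e-05), and edgeR did not call the second. Both values turned on siControl replicate 1, without which the log2 fold changes went from 3.49 to 5.40 and from 3.27 to 5.19, still called. With siControl libraries under 3 counts set to 3, the ratios of the group means were 10.1 and 8.64. Alcam spread from 3.19 to 67.8 within CytoD alone in the first experiment, where none of its differences passed the test.

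The PDGF receptors were lower on CK666 in the first experiment and were called in no pairwise comparison of the second. Pdgfra lies on chromosome 5 (chr5:75152292-75198215, plus strand) and Pdgfrb on chromosome 18 (chr18:61045150-61085061, plus strand). Pdgfrb had 7359, 7835 and 7605 normalized counts in control, 3201, 4509 and 4265 in CK666, and 8198, 8421 and 8209 in CytoD libraries. Every CK666 library lay far below the lowest control library and every CytoD library above the highest. Its difference on CK666 was -0.93 (SE 0.13, adjusted p = 1.27e-11), under the fold limit, and -1.02 and called without CK666 replicate 2. Against CytoD, CK666 cells had 2.07-fold less Pdgfrb (log2 fold change -1.05, SE 0.13, adjusted p = 1.02e-14), or a change of -0.91 that was not called without CK666 replicate 1. The difference of 0.12 between CytoD and control did not pass the test (95% interval -0.13 to 0.38, adjusted p = 0.489).

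Pdgfra had 2324, 2649 and 2612 normalized counts in control, 1157, 2044 and 1843 in CK666, and 3924, 3728 and 3754 in CytoD libraries. The 3 groups did not overlap, with CK666 lowest and CytoD highest. The difference from control was -0.59 on CK666 (SE 0.18, adjusted p = 0.00496) and 0.59 on CytoD (SE 0.18, adjusted p = 0.00486), neither past the fold limit. Neither pass of the p threshold was firm. The edgeR quasi-likelihood test gave adjusted p = 0.0249 and 0.0230, and leaving out 1 library in the Wald test gave up to 0.0357 and 0.0421. Without CK666 replicate 1 the difference on CK666 was -0.38. Between the agents Pdgfra was 2.26-fold lower on CK666 (log2 difference -1.18, SE 0.18, adjusted p = 1.47e-09). Without CK666 replicate 1 the difference was -0.97 and was not called.

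In the second experiment the siControl libraries were widely spread in both receptors. Pdgfra had 4119, 1791 and 2258 normalized counts in siControl, 3576, 3700 and 4209 in siArp4 libraries and 3219, 2775 and 2053 in siArp4+CK666 libraries. Pdgfrb had 5714, 3646 and 4103 in siControl, 4791, 4989 and 5418 in siArp4 libraries and 6542, 5184 and 4483 in siArp4+CK666 libraries. The siControl range covered all but 1 of the other libraries for each gene, siControl replicate 1 was the highest of its group, and only between siArp4 and siArp4+CK666 did the libraries of Pdgfra not overlap. The knockdown difference of Pdgfra was 0.49 (95% interval -0.14 to 1.12, adjusted p = 0.242) and became 0.91 (adjusted p = 2.63e-04) without that library, still under the fold limit, and leaving out each library in turn gave adjusted p from 2.63e-04 to 0.511. For CK666 in knockdown cells the difference was -0.51 for Pdgfra (95% interval -1.15 to 0.12, adjusted p = 0.354) and 0.09 for Pdgfrb (95% interval -0.36 to 0.54, adjusted p = 0.888). The response of Pdgfrb to CK666 differed between knockdown and untransfected cells by 1.01 (SE 0.25, adjusted p = 7.76e-04), barely over the fold limit, and by 0.88 without CK666 replicate 1, 0.99 without control replicate 2, 0.97 without siArp4 replicate 1 and 0.86 without siArp4+CK666 replicate 1, when it was not called. The same test gave 0.07 for Pdgfra (95% interval -0.67 to 0.80, adjusted p = 0.940).

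Eng lies on chromosome 2 (chr2:32646595-32682669, plus strand) and shares 61 of its 4048 exon bases with Fpgs on the opposite strand, which the unstranded libraries cannot separate. It had 30.0, 46.7 and 35.2 normalized counts in control, 39.3, 27.5 and 24.2 in CK666, and 36.1, 55.2 and 61.8 in CytoD libraries, and these groups overlapped. In the second experiment it had 35.2, 75.5 and 50.4 in siControl, 20.2, 20.5 and 17.0 in siArp4 libraries and 5.29, 6.68 and 15.8 in siArp4+CK666 libraries, with no overlap between the groups. Eng fell 5.79-fold in siArp4+CK666 against siControl (95% interval 2.79 to 12.0; log2 fold change -2.53, adjusted p = 1.60e-05), and the change was -3.15 without siArp4+CK666 replicate 3. The knockdown difference was -1.47 (SE 0.50, adjusted p = 0.0117) and did not pass the test. It was -1.71 (adjusted p = 0.00615) without siControl replicate 1 and -1.47 (adjusted p = 0.00700) without siArp4+CK666 replicate 3, and was then called, as it was in a fit of all 18 libraries and a fit of the 2 groups alone. Fpgs, an enzyme of folate metabolism, had group means of 467, 396 and 252 normalized counts in siControl, siArp4 and siArp4+CK666, -0.88 on the log2 scale between the last and the first (SE 0.22, adjusted p = 3.25e-04); its part in the result for Eng was not tested.

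The remaining members were too low for a fold change. Thy1 (chr9:44043384-44048579) had no count in all 18 libraries, and a count of 0 still allows as many as 3 per library. Nt5e (chr9:88327197-88372092) stayed at or below 8.16 normalized counts, and 5 of 18 libraries had none. Lepr (chr4:101717404-101815352) ranged from 0.930 to 37.9, with overlap between all groups of an experiment and values of 1.91, 10.6 and 37.9 within siArp4+CK666 alone. Neither Thy1 nor Nt5e entered the tests, and Lepr, although tested, was called in no comparison.

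**Figure D3:**
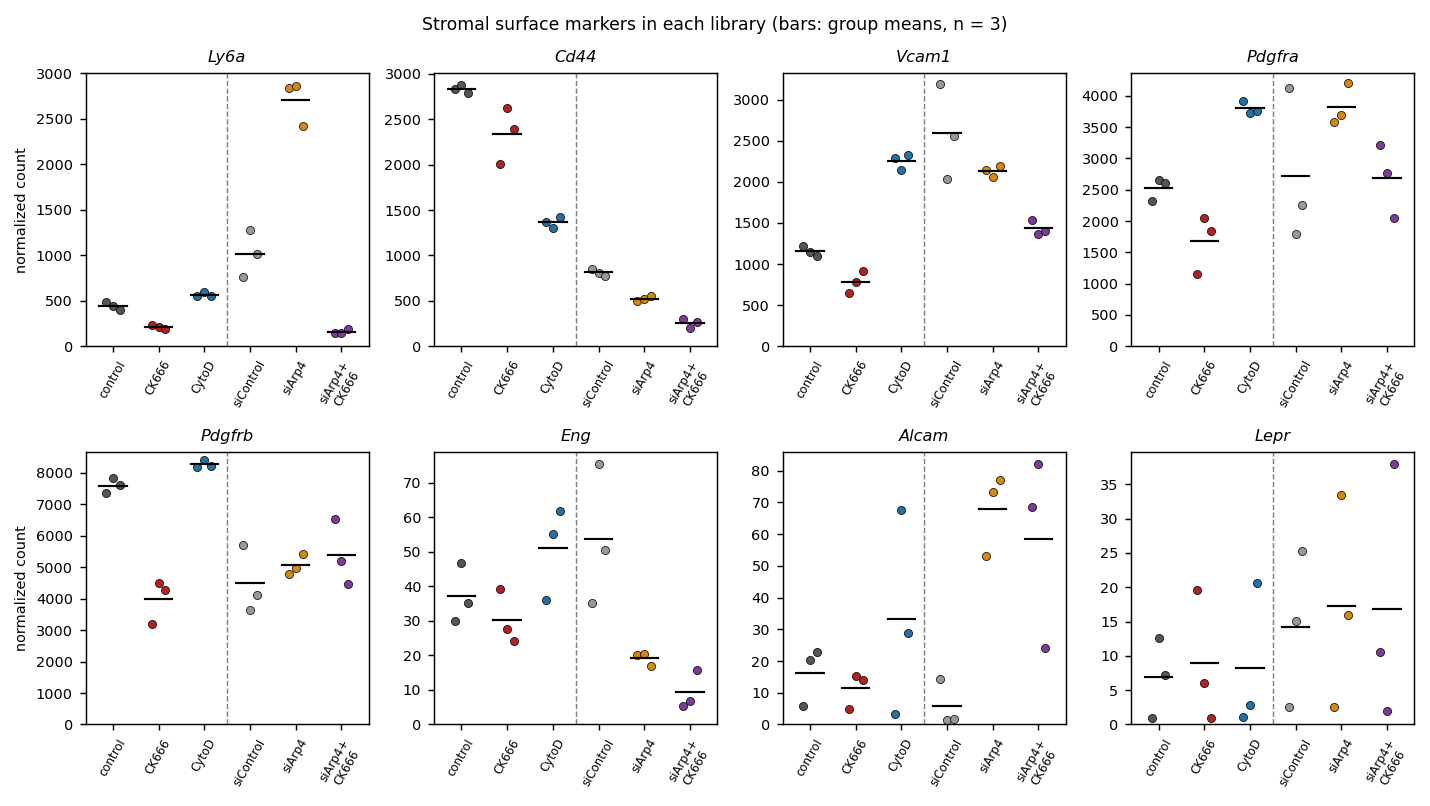
Normalized counts of 8 members in each of 18 libraries (points; bars: group means, n = 3; dashed line: border between the experiments, which have separate scales). Ly6a reaches 2865 in siArp4 and 142 in siArp4+CK666, and Cd44 steps down within both experiments. Lepr is scattered within every group, with 0.930 in CK666 and 37.9 in siArp4+CK666 as the lowest and highest libraries.

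The promoters of Cd44 and Pdgfra are shown because these receptors differed from control in opposite directions on CytoD. Start sites came from a table of RefSeq promoters (GRCm38.p6), in which 6 of the 10 members were matched; Ly6a, Thy1, Vcam1 and Pdgfrb were not. The 250 bases before the start were read 5′ to 3′ on the gene's strand, at chr2:102901666-102901915 (minus) for Cd44 and chr5:75152001-75152250 (plus) for Pdgfra. Both strands were searched for AP-1 (TGANTCA), TEAD (GGAATG), GAS (TTCNNNGAA), GC box (GGGCGG) and CCAAT letters and, by name, for the CArG box and the kappaB site. Matches would be in capitals, and neither window held one:
Cd44: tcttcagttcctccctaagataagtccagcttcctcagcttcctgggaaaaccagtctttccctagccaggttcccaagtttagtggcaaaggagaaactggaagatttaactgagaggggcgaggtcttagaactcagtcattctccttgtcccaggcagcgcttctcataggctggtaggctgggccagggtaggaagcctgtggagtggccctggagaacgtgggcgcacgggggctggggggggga
Pdgfra: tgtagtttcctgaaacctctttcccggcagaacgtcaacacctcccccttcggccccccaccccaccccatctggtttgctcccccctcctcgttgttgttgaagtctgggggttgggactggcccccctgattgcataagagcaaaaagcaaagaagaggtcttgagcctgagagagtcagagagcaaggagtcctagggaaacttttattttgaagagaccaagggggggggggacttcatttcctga
Of 32851 such windows in the whole table, 6.75% held the AP-1, 12.6% the TEAD, 7.02% the GAS, 32.7% the GC box, 33.9% the CCAAT, 1.47% the CArG and 7.25% the kappaB motif. The Cd44 window had 56.4% G and C and the Pdgfra window 54.4%, beside a median of 52.4% over all windows. The window of Eng held none of the 7 motifs either, which says only that these letters are not in these windows. That of Nt5e held GC boxes, that of Alcam GC boxes and a CCAAT match, and of the windows of Lepr 1 held a GC box and another a CCAAT match. All 250 bases of the Nt5e window, the Alcam window and the Lepr window with the GC box lay in annotated exons of the same gene. The windows of Cd44, Pdgfra and Eng held 0 such bases.

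For Ly6a, Cd44, Vcam1, Pdgfra and Pdgfrb all CK666 libraries lay below all control libraries, as they did for 23.4% of the 14597 genes tested. That share was not worked out for the other comparisons, so groups that did not overlap there have no such background beside them. In the test of CK666 against control 0 of 8 tested members were called higher and 1, Ly6a, lower, where 4.89% and 6.06% of all 14597 genes tested were. By adjusted p alone 4 members passed, Ly6a, Pdgfrb, Vcam1 and Pdgfra, all lower, where 30.0% of all genes did. The median difference of the tested members was -0.54, beside 0.01 over all genes. Of 25 other stromal surface genes, 19 were tested, 2 were called higher and 2 lower, among them Cd248 (log2 fold change -2.26, SE 0.12, adjusted p = 2.84e-77), the integrin subunit gene Itga11 (-1.60) and the interferon-inducible gene Bst2 (1.19). Of 38 ligands, partners and enzymes tied to the members, 30 were tested, 4 were called higher and 7 lower, among them Tgfb3, a ligand for the receptor complex that holds Eng (-1.34), the adenosine receptor gene Adora2b (-1.18), the integrin subunit gene Itgb3 (1.32) and Leprotl1 (1.18).

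On CytoD, 0 of 8 tested members were called higher and 1, Cd44, lower, where 4.80% and 4.32% of 13717 genes were. By adjusted p alone Cd44, Vcam1 and Pdgfra passed, 3 members, where 29.6% of genes did, and the members' median was 0.40 beside 0.01 over all genes. Of the other stromal surface genes 18 were tested, 2 were called higher and 1, the integrin subunit gene Itgav, lower (log2 fold change -1.23, SE 0.16, adjusted p = 6.11e-14). Of the partners 29 were tested, 1 was called higher and 2 lower.

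When CK666 was compared directly with CytoD, 0 of 8 tested members were called higher and 4 lower, Ly6a, Vcam1, Pdgfra and Pdgfrb, where 5.08% and 6.74% of 15038 genes were, and by adjusted p alone 5 passed, with Cd44 higher on CK666 (0.78, SE 0.12, adjusted p = 3.31e-10), where 31.8% of genes did. Ly6a was 2.65-fold lower on CK666 (-1.41 on the log2 scale, SE 0.15, adjusted p = 1.41e-20). The count of 4 fell to 2 without CK666 replicate 1. Partners called here were 2 higher and 6 lower of 30 tested, with Pdgfd, a ligand of Pdgfrb, at -1.44, Tgfb3 at -1.44, the nucleotide pyrophosphatase gene Enpp1 at -1.42 and Adora2b at -1.99. In the Ly6 family 0 were called higher and 4 lower of 8 tested, Ly6a (-1.41), Ly6c1 (-1.42) and Lynx1 (-1.27) being the abundant ones.

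Arp4 knockdown raised 2 of 8 tested members, Ly6a and Alcam, and lowered 0, where 6.69% and 9.49% of 15415 genes were called higher and lower. With Cd44, 3 members passed by adjusted p alone, where 25.1% of genes did, and the median was 0.23 beside -0.05 over all genes. Of 20 other stromal surface genes tested 2 were called higher, Cd248 (log2 fold change 2.40, SE 0.13, adjusted p = 5.69e-76) and the fibronectin receptor subunit gene Itga5 (2.13), and 3 lower, of which Bst2 (-1.49) was abundant enough to name. Among 29 partners tested 3 were called higher and 3 lower. Has2, the synthase of the hyaluronan that Cd44 binds, rose (3.55, SE 0.37, adjusted p = 7.33e-20), as did Tgfb2 (1.47), while the hyaluronidase gene Hyal2 (-2.34) and Tgfb1 (-1.30) fell.

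With the Arp4 siRNA and CK666 together, 1 of 8 tested members was called higher against siControl, Alcam, and 3 lower, Ly6a, Cd44 and Eng, where 8.06% and 12.4% of 15415 genes were. With Vcam1, 5 passed by adjusted p alone, where 29.9% of genes did, and the median was -0.44 beside -0.05. Of the other stromal surface genes 1 was called higher, Itga5 (1.85), and 4 lower of 20 tested, with Cd248 at -1.44 and Itgav at -1.25. Of the partners 3 were called higher and 4 lower of 29 tested, with Has2 at 2.59, Hyal1 at 2.29, Hyal2 at -2.15 and Tgfb1 at -1.63.

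When CK666 was added to knockdown cells, 0 of 8 tested members were called higher and 2 lower, Ly6a and Cd44, where 1.63% and 4.12% of 14098 genes were. The same 2 passed by adjusted p alone, where 9.90% of genes did, and the median was -0.54 beside 0.02. Of 19 other stromal surface genes tested, 0 were called higher and 1 lower, Cd248, with 8948, 9023 and 8504 normalized counts in siArp4 against 601, 625 and 612 in siArp4+CK666 (log2 fold change -3.85, SE 0.13, adjusted p = 3.14e-187). Of 27 partners tested Itgb3 was the 1 called higher (1.42) and Enpp1 the 1 called lower (-1.03). All comparisons within an experiment share libraries, so these counts are not independent of each other.

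The direct test of whether CK666 acted differently in knockdown and in untransfected MSC called 1 of 8 tested members higher, Pdgfrb, and 1 lower, Ly6a, where 1.90% and 2.52% of 13511 genes were. With Cd44 (-0.77, SE 0.19, adjusted p = 0.00127), 3 passed by adjusted p alone, where 7.82% did. Of 18 other stromal surface genes tested, 0 were called higher and 2 lower, Cd248 (-1.60, SE 0.15, adjusted p = 9.36e-25) and podoplanin, Pdpn (-1.15). Ly6c1 differed by -1.63 (SE 0.30, adjusted p = 2.63e-06).

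**Figure D4:**
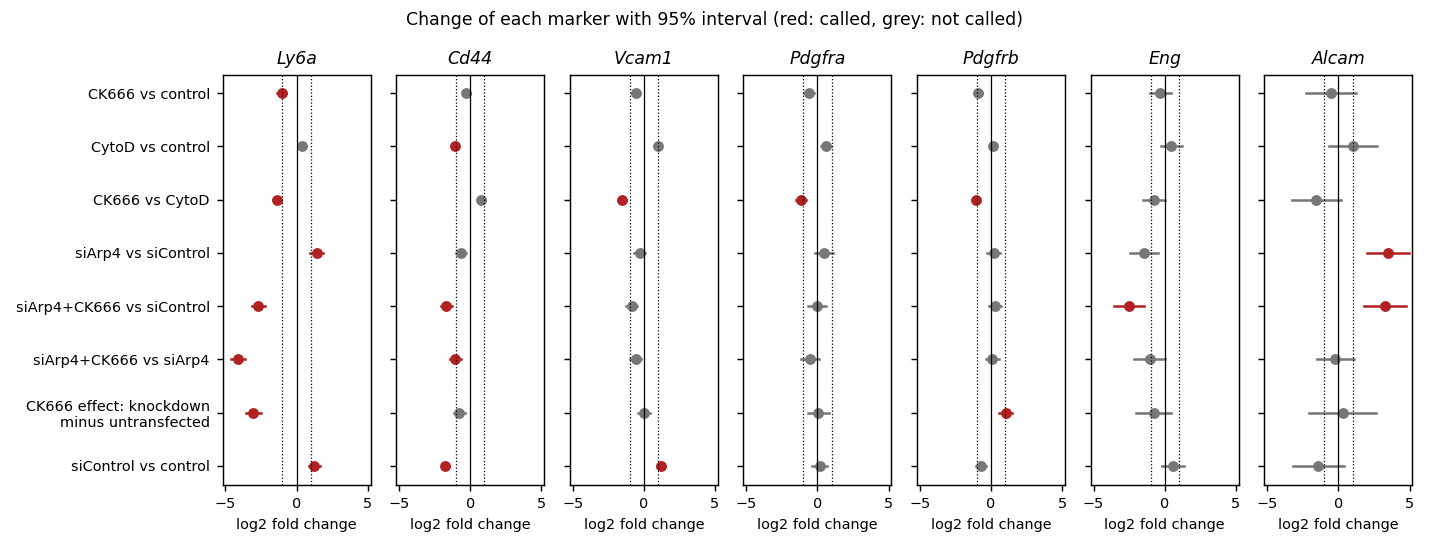
Log2 fold changes of 7 members in 8 comparisons with 95% intervals (red: called; grey: not called; dotted lines: log2 fold changes of -1 and 1). The changes of Ly6a run from -4.10 to 1.42, and the wide intervals of Alcam belong to a gene with at most 82.0 normalized counts.

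The control groups of the experiments were themselves unlike in the markers. On a scale over all 18 libraries siControl cells were called higher than untransfected control cells in 2 of 8 tested members, Ly6a (log2 fold change 1.25, SE 0.19, adjusted p = 3.03e-10) and Vcam1 (1.22, SE 0.15, adjusted p = 1.06e-14), and lower in 1, Cd44 (-1.75, SE 0.13, adjusted p = 4.39e-38), where 14.1% and 10.1% of 14491 genes were. Pdgfrb was lower by adjusted p alone (-0.71, SE 0.17, adjusted p = 1.58e-04), which made 4 members, where 42.1% of genes passed. Transfection and experiment cannot be told apart in this comparison.

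Lists of other cell types moved between the groups as well, and their part in the marker changes was not tested. Summed on the CPM per kilobase scale, 8 adipocyte genes such as Lpl and Adipoq had between 248 and 267 in control, 337 to 374 in CK666, 556 to 602 in CytoD, 427 to 576 in siControl, 158 to 163 in siArp4 and 415 to 471 in siArp4+CK666 libraries. The 8 osteoblast genes summed to 6269 to 6406 in control, 4905 to 6095 in CK666 and 6732 to 7047 in CytoD libraries. They had 2749 to 3101 in siControl, 7830 to 7856 in siArp4 and 4322 to 4758.5 in siArp4+CK666 libraries. On Arp4 knockdown 2 of 6 tested were called higher, Spp1 (1.39) and Col1a1 (1.70), and 0 lower. The shares over all genes were 6.69% and 9.49%, and the median of this list was -0.93. The list of 11 pericyte and smooth muscle genes, led by Acta2 and Tagln, ran from 842 to 893 in control, 429 to 617 in CK666, 343 to 369 in CytoD, 358 to 595 in siControl, 511 to 582 in siArp4 and 131 to 167 in siArp4+CK666, with its defining gene Kcnj8 at 0 throughout. The list of 17 blood cell and macrophage genes held 10.8 to 11.6 in CytoD libraries, where Vcam1 and Pdgfra were higher, against 6.13 to 7.55 in control libraries. In the second experiment it ran from 4.92 to 8.59 in siControl, 4.51 to 5.47 in siArp4 and 5.18 to 12.5 in siArp4+CK666 libraries. The 11 genes of marrow reticular stroma, which include Vcam1 and Lepr, summed to 300.0 to 317 in control, 177 to 205 in CK666, 803 to 828 in CytoD, 429 to 575 in siControl, 172 to 187 in siArp4 and 203 to 219 in siArp4+CK666 libraries. Cxcl12, the chemokine that retains blood stem cells, rose on CytoD (log2 fold change 1.64, adjusted p = 3.13e-109) and fell on Arp4 knockdown (-2.41, adjusted p = 1.33e-55). The list as a whole did not fall with it: its median on knockdown was -0.08. Of 11 tested 1 was called higher and 3 lower, where 6.69% and 9.49% of all genes were. In siArp4+CK666 against siControl the median was 0.06, with 0 called higher and 2 lower, where 8.06% and 12.4% of all genes were.

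The 10 fibroblast and stromal genes were, in sum, lower on CK666 and higher on Arp4 knockdown, as Ly6a was, and their part was not tested either. They summed to 4001 to 4100 in control, 2772 to 2915 in CK666, 3427 to 3783 in CytoD, 3587 to 4993 in siControl, 5428 to 5526 in siArp4 and 2601 to 2876 in siArp4+CK666 libraries. In the test of CK666 against control 0 of 9 tested were called higher and 2 lower, where 4.89% and 6.06% of all genes were. The 2 were the collagen genes Col1a1 (-1.48) and Col3a1 (-2.08). On Arp4 knockdown 4 were called higher and 1 lower, where 6.69% and 9.49% of all genes were. The matrix genes Dcn (4.06) and Col3a1 (2.85) were among the former, and the latter was S100a4 (-1.12). With CK666 added to knockdown cells, where Ly6a and Cd44 fell, 0 were called higher and 5 lower, beside 1.63% and 4.12% of all genes. Dcn was at -2.62 and Col3a1 at -2.42, and the list median was -1.27.

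Across the 18 libraries the abundant members did not share 1 pattern. Likeness was measured as the root mean square difference between log2 levels that were centred and scaled to an SD of 1 for each gene, over 10319 genes with a mean of at least 100 normalized counts. The closest members were Vcam1 and Pdgfra at 0.667, and the farthest were Vcam1 and Cd44 at 1.66. Ly6a was nearest to Plau, the urokinase plasminogen activator (0.304), Pla1a (0.314) and Kctd11 (0.359). Cd44 was nearest to Hsp90b1, a chaperone of the endoplasmic reticulum (0.195), Atad2 (0.201) and Polr3b (0.213). Vcam1 was nearest to Ddx58, a sensor of viral RNA (0.213), Gulp1 (0.293) and Gda (0.307). Pdgfra was nearest to Pdgfd, which encodes a platelet-derived growth factor (0.324), Scd1, a fatty acid desaturase (0.336), and Atl1 (0.390), and Pdgfrb to Cand2 (0.300), Lgr5 (0.305) and Fam168a (0.353). These values describe the same 18 libraries, whose groups and depth they share, and no test was made of them.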

How the data were processed

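Paired-end reads of unstranded libraries were quantified by the authors with Salmon 1.2.1 against GENCODE vM25 on GRCm38 (mm10). The authors deposited estimated counts per gene, unscaled between samples; the summing of transcripts is not given in the sources used here. Of the nonzero values 0% were exactly whole. Among values below 3.5 in genes with 1 transcript, 74.9% lay within 0.1 of a whole number. Whether a scaling, for example by length, was part of the summing is not known, and estimated counts were rounded before count models. The table held 54347 genes and 18 libraries. Symbols and coordinates came from GENCODE vM21 of the same build (54094 identifiers matched, 253 did not).

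DESeq2 1.42.0 in R 4.3.3 was run with its Wald test, two-sided, as in the methods of the study, on the 9 libraries of each experiment with the group as the only term, and on all 18 for comparisons across experiments. A gene was called at an absolute log2 fold change over 1 and a Benjamini-Hochberg adjusted p below 0.01 over all genes tested. The depth of 18075610 to 24733212 counts per library limits the genes with few counts; limits at 0 cover counting error only. Alternatives were TMM scaling, the edgeR 4.0.16 quasi-likelihood test, a filter on low counts, other thresholds, other sets of libraries, a replicate block and leaving out each library.

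All 10 members are given. From the other lists at most 4 genes per list and comparison are named, those called with the largest changes among genes with a mean of at least 100 normalized counts; for members over that mean, the 3 genes most alike. Ly6c1, Ly6e, Lynx1, Gml, Gml2, S100a4 and Fpgs were also described where the rule did not take them. Lynx1, Gml, Gml2, S100a4 and genes named beside a list's summed level (Kcnj8, Lum, Cd3e, Cdh5, Ptprc, Pecam1, Vwf and examples of list members) were chosen after their values were seen. CPM per kilobase are normalized counts of the 18-library fit, per exon length and geometric mean depth. The members, lists and motifs were chosen with earlier results of these data known. Replicate numbers did not pair libraries: deviations of equally numbered libraries correlated between -0.42 and 0.20 in the first experiment and between -0.60 and 0.73 in the second.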

Additional observations from a re-analysis of the deposited data

Results flagged for a closer look

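The response to CK666 differed between Arp4 knockdown cells and untransfected cells in 2 members, by a test of the difference itself over all 18 libraries. For Ly6a the difference between the responses was -3.05 on the log2 scale, since the gene was lower on CK666 in both settings and far lower in knockdown cells. For Pdgfrb it was 1.01, since the gene was lower on CK666 in untransfected cells and showed a difference of 0.09 in knockdown cells. No control siRNA cells with CK666 were analysed here, so knockdown and transfection cannot be told apart in either value.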

How the results depend on the processing

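The counts of members called kept within 1.5 times of their values in most settings, and no change of a called member turned direction. Without a fold limit 4 members passed for CK666 and 3 for CytoD. For the difference of the CK666 responses TMM scaling and edgeR each gave 1, the call of Pdgfrb being lost. Leaving out each library in turn gave 0 to 2 members for CK666 against control (0 without control replicate 1 or CK666 replicate 3), 1 to 2 for CytoD, 2 to 4 for CK666 against CytoD, 2 to 3 for siArp4, 4 to 5 for siArp4+CK666 against siControl, 1 to 2 against siArp4, 1 to 2 for the difference of the CK666 responses, and 3 throughout for siControl against control. Some changes that were not called turned sign when libraries were left out. Alcam on CytoD, at 1.03 (SE 0.87) in the main fit, ranged from -0.028 to 1.56. In siArp4+CK666 the ranges were -0.25 to 0.41 for Pdgfra against siControl, and -0.062 to 0.21 for Pdgfrb and -0.54 to 0.15 for Alcam against siArp4. In the difference of the responses they were -0.14 to 0.23 for Pdgfra, -0.065 to 0.70 for Alcam and -0.13 to 0.11 for Vcam1. Between the controls Pdgfra ranged from -0.26 to 0.37. The cause was not tested. The replicate block left every count of members as it was and turned Pdgfra in siArp4+CK666 against siControl to 0.026. With the longest transcript as the length, control levels were 22.0 for Ly6a, 23.9 for Cd44, 13.4 for Vcam1, 17.5 for Pdgfra and 0.0115 for Nt5e. Over all genes, edgeR called 466 where DESeq2 called 811 for CK666 in knockdown cells, and 384 against 597 for the difference of the responses. Eng, Alcam, Lepr and Nt5e are limited by depth.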
